A study of Mus musculus with 144 samples.

Results

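The genes described here are 36 that mark liver endothelial cells or serve vascular signalling, chosen by symbol from the 24421 gene symbols of the deposited tables. They occupy 60 of the 34600 transcript rows, 26 of them have a single row, and for each symbol the row with the largest mean was used. The set holds 8 general endothelial junction and surface genes (Pecam1, Cdh5, Eng, Emcn, Egfl7, Robo4, Ptprb, Icam2), 7 growth factor receptors (Kdr, Flt1, Flt4, Tek, Tie1, Nrp1, Nrp2), 6 sinusoidal scavenger and lectin receptors (Stab1, Stab2, Lyve1, Mrc1, Clec4g, Fcgr2b) and 4 other sinusoidal markers (Aqp1, Dnase1l3, Ehd3, Oit3). It also holds 4 transcription factors (Erg, Gata4, Klf2, Maf), the Notch pair Dll4 and Notch1, the nitric oxide synthase Nos3, and 4 inducible adhesion molecules (Icam1, Vcam1, Sele, Selp).

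Liver sinusoidal endothelial cells line the capillaries of the liver lobule. They are fenestrated, lack an ordinary basement membrane and take up waste from blood through scavenger receptors. Their identity is set in part by GATA4 and MAF, and VEGF, angiopoietin and Notch signals shape them. Adhesion molecules on their surface capture circulating leukocytes. REV-ERB alpha and beta are nuclear receptors of the circadian clock that repress genes such as Arntl, and their own transcripts rise and fall daily in liver.

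RNA was sequenced from male C57BL/6J mice on normal chow, in 3 libraries for each of 48 groups. The tested mice were labelled as REV-ERB a/b double knockout, which the design text places in adult hepatocytes, and the controls as WT. The column names call these groups CRE and GFP, so the vector and the genotype cannot be told apart. Whole liver was taken in both genotypes from mice fed ad libitum and from mice on reverse phase feeding, at zeitgeber time (ZT, counted in hours from lights on) 1, 4, 7, 10, 13, 16, 19 and 22, and isolated endothelial and Kupffer cells at ZT4, ZT10, ZT16 and ZT22. The series asks how the hepatocyte clock and feeding affect the other cell types of the liver. Nothing in the labels ties each library to a separate animal, so the p-values measure the spread between libraries only.

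Summed over the 1 row used for each symbol, depth was 4.57e6 to 10.4e6 counts per ad libitum liver library and 13.1e6 to 26.2e6 per reverse-phase library. Depth could not be recovered for the isolated cells, whose values were quantile normalised. Nr1d1, which encodes REV-ERBα, had 19.1 to 175 normalised CPM (counts scaled to library size) in knockout livers and 1.37 to 169 CPM in control livers fed ad libitum. The fitted daily mean of Nr1d1 was higher in knockout livers, by 1.76 on the log2 scale with ad libitum feeding and 1.83 with reverse-phase feeding, and that of Nr1d2, which encodes REV-ERBβ, by 1.11 and 0.80. These counts cover whole transcripts, and no source used here says which exons were deleted, so they do not check the labels. Arntl, a gene that REV-ERBs repress, was higher in knockout livers by 1.62 ad libitum and 1.63 under reverse-phase feeding, while its difference was 0.36 ± 0.24 (SE) in endothelial cells and 0.23 ± 0.18 in Kupffer cells, which did not pass the test. Dbp differed by 1.15 ad libitum, 1.51 under reverse-phase feeding, -0.31 in endothelial cells and -0.18 in Kupffer cells, and Per2 by -0.35, -0.23, 0.14 and -0.05, of which the liver values of Dbp and the ad libitum value of Per2 passed. In endothelial cells Nr1d1 and Nr1d2 differed by -0.22 ± 0.19 and -0.23 ± 0.26, and in Kupffer cells by -0.32 ± 0.22 and -0.34 ± 0.13, none of which passed.

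The promoters of the genes whose daily course differed between genotypes are shown to set their sequences beside the values that follow: Eng and Notch1 from endothelial cells, Clec4g and Ehd3 from whole liver. The windows run from 250 bases before to 50 after the annotated start, are from RefSeq on GRCm38.p6, and lie at chr2:32646345-32646644 (plus strand), chr2:26503773-26504072 (minus strand), chr8:3720602-3720901 (minus strand) and chr17:73804591-73804890 (plus strand). Capitals mark the letters AGGTCA, the half-site of nuclear receptors, the E-box CACGTG bound by clock factors, and AGGAAG, the core of ETS factor sites, each on either strand.
Eng: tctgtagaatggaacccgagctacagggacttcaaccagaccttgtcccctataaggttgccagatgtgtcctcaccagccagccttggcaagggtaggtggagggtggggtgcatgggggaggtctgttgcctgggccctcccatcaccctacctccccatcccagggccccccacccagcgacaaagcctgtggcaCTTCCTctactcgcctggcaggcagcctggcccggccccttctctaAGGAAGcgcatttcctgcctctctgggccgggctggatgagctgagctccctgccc
Notch1: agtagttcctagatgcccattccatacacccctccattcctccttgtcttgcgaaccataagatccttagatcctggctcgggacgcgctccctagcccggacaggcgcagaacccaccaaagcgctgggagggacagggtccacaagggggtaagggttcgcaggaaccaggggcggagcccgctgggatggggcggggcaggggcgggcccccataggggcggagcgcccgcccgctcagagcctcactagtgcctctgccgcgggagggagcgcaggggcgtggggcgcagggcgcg
Clec4g: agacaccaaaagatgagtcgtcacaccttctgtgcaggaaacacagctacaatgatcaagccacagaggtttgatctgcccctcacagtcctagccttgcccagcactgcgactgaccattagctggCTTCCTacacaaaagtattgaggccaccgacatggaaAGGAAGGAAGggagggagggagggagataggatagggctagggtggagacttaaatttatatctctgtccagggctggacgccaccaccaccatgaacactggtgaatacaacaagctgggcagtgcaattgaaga
Ehd3: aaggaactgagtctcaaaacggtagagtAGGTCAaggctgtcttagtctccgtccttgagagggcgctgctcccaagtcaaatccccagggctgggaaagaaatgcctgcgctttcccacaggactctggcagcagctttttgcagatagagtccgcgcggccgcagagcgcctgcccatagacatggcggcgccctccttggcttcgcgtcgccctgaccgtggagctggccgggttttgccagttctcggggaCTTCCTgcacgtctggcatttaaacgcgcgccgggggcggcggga
Of 36 members, 25 had a promoter in this table, and Maf, whose course also differed, did not. AGGTCA was found in 7 of the 25 (28%), against 16.04% of 27025 mouse promoters of the same length, and AGGAAG in 15 (60%), against 35.15%. CACGTG was in 0 of the 25, against 7.241% of all promoters. Among the printed windows, Ehd3 held 1 AGGTCA and 1 AGGAAG, Clec4g held 3 AGGAAG, 2 of them overlapping, Eng held 2 AGGAAG, and Notch1 held none of these motifs.

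In isolated endothelial cells the 6 most abundant members per transcript length were Clec4g, Aqp1, Fcgr2b, Ehd3, Mrc1 and Stab2, in that order in both genotypes. The deposited value per kilobase averaged 6814 in knockout cells and 7185 in control cells for Clec4g, a sinusoidal C-type lectin, and 5917 and 6360 for the water channel Aqp1. Fcgr2b, a receptor that clears immune complexes, followed with 4157 and 4261, then Ehd3, an endocytic recycling protein, with 3601 and 3382, and the mannose receptor Mrc1 with 3287 and 3343. Stab2, the main scavenger receptor for hyaluronan, had 2735 in knockout cells and 2730 in control cells. Ptprb, the vascular endothelial receptor phosphatase, had 2710 and 2594, and Kdr, the principal VEGF receptor, 2423 and 2682. The sinusoidal genes Stab1 (1123 and 1111) and Lyve1 (746 and 576) were lower than these. The general markers Pecam1 (1101 and 1032), Eng (1103 and 980) and Cdh5 (948 and 926) formed a middle group whose order differed between genotypes.

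The lowest members in both genotypes were Sele, Selp, Nos3, Icam1 and Notch1, followed by Dll4 and the transcription factor gene Klf2. Klf2 had 179 per kilobase in knockout cells and 127 in control cells, and Dll4 140 and 131. Nos3, the endothelial nitric oxide synthase, averaged 73.0 per kilobase in knockout cells and 70.3 in control cells, and Selp, encoding P-selectin, 6.19 and 4.67. Sele, encoding E-selectin, ranged from 0.735 to 5.38 in knockout libraries and from 0 to 5.20 in control libraries, was listed at 0 in 1 control library, and was below the filter on low values in every table. The other 35 members passed that filter in endothelial cells and in both liver tables, and 34 did in Kupffer cells, where Selp was also too low.

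The endothelial libraries carried the markers their label names. A member's share of its table was a median of 58.6 times higher in endothelial than in whole-liver libraries of the knockout and 59.0 times higher in controls, from values scaled separately for each table. Kdr showed the highest ratio, 180 in knockouts and 242 in controls. Selp showed the lowest, 0.900 and 0.662, so its share of the whole-liver table was larger than its share of the endothelial table. Icam1 (6.43 and 5.58) and Gata4 (10.4 and 9.57) also had low ratios.

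Other cell types were present in the endothelial libraries. The summed value of 12 hepatocyte markers ranged from 8527 to 125600 in knockout libraries and from 11410 to 59280 in control libraries, and Alb alone from 5070 to 90910 and from 7682 to 35200. The highest of these was knockout ZT22 number 2, which with knockout ZT22 number 3 also lay farthest from its group, by 5.24 and 4.73 median absolute deviations. Kupffer and macrophage markers summed to 4767 to 14830 in knockout libraries and 4443 to 19460 in control libraries, with Clec4f at 1016 to 3342 and 926 to 4017 and Adgre1 at 369 to 1158 and 392.2 to 1311. Each of the 12 tested Kupffer and macrophage markers had a lower daily mean in knockout libraries, with a median log2 difference of -0.28, none passed, and 2 had an unadjusted p under 0.05 (limma). Stellate cell markers summed to 14230 to 28860 in knockout libraries and 13770 to 24050 in control libraries, with Reln at 2623 to 6823 and 2107 to 5436. The part of these cells in the results below was not tested beyond a fit with the hepatocyte sum as a covariate.

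No vascular gene passed the test for a different daily mean in endothelial cells of the knockout. With limma, 0 of 35 members passed at a Benjamini-Hochberg adjusted p under 0.05, where 0.0319% of 12523 genes did (0.024% higher, 0.00799% lower), and 3 members had an unadjusted p under 0.05. A fit with plain eBayes variances also called 0. The differences ran from -0.15 to 0.48 on the log2 scale, with a median of 0.01 over the members and -0.006 over all genes.

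Klf2, a transcription factor induced by blood flow, had the largest difference. Its deposited value was 180 to 562 in knockout libraries, median 317, and 140 to 366 in control libraries, median 220, so the groups overlapped, and the log2 difference was 0.48 ± 0.17 (SE, n = 12 each; limma adjusted p = 0.709). Lyve1, a hyaluronan receptor of sinusoidal and lymphatic endothelium, had values of 942 to 3846 in knockout libraries and 892 to 2029 in control libraries, a difference of 0.34 ± 0.16 (limma adjusted p = 0.923). Kdr was at 10870 to 15490 in knockout libraries and 13080 to 16010 in control libraries, a difference of -0.15 ± 0.05 (limma adjusted p = 0.640). The values of Klf2, Lyve1 and Kdr were not beyond the spread between libraries after adjustment. The sinusoidal scavenger and lectin receptors other than Lyve1 had smaller differences: Stab1 -0.00 ± 0.10, Stab2 -0.00 ± 0.07, Clec4g -0.08 ± 0.06, Mrc1 -0.03 ± 0.05 and Fcgr2b -0.04 ± 0.07. So did the other sinusoidal markers: Aqp1 -0.11 ± 0.09, Dnase1l3 0.06 ± 0.07, Ehd3 0.08 ± 0.06 and Oit3 0.11 ± 0.07.

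Single times gave the same count. At ZT4, ZT10, ZT16 and ZT22, 0 of 35 members were called by limma, against 0%, 0.00799%, 0% and 0% of all genes. At an unadjusted p under 0.05 there were 2, 7, 11 and 10 members. Without knockout ZT22 number 3, 4 members were called at ZT10 and 4 at ZT16, and without knockout ZT22 number 1, 3 were called at ZT22. Without both ZT22 libraries that stood apart, the counts were 4 at ZT10 and 5 at ZT16. With the hepatocyte sum as a covariate, 2 were called at ZT10. Leaving out ZT22 libraries does not alter the ZT10 and ZT16 means, only the estimate of spread shared by all groups. The shares of all genes called in these refits are not given here.

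A minority of these genes had a detectable daily rhythm in endothelial cells. In knockout cells limma called 9 of 35 members (Notch1, Gata4, Dll4, Tie1, Maf, Nos3, Stab1, Selp and Eng), where 13.2% of all genes were called, and 7 of the 9 peaked between ZT16.8 and ZT19.2. In control cells it called 4 of 35 (Icam1, Tek, Emcn and Gata4), where 6.13% of all genes were called. The median fitted peak-to-trough fold was 1.30 in knockout and 1.26 in control cells over the members, against 1.33 and 1.30 over all genes. Gata4 was the 1 member called in both genotypes. The difference between the 2 genotypes' rhythms, tested itself, was called for 3 members (Notch1, Eng and Maf), where 2.04% of all genes were.

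Icam1, the adhesion molecule that holds rolling leukocytes (NM_010493, mm9 chr9:20820404-20833240), peaked in the late light phase. In knockout cells its values were 230, 224 and 255 at ZT4, 339, 322 and 288 at ZT10, 268, 268 and 238 at ZT16, and 219, 191 and 305 at ZT22. In control cells it had 259, 332 and 255 at ZT4, 355, 380 and 390 at ZT10, 236, 270 and 207 at ZT16, and 190, 212 and 237 at ZT22. In knockout cells the ZT10 libraries overlapped with 1 ZT22 library, and in control cells all ZT10 libraries stood above those of every other time. The fitted fold was 1.37 with a peak at ZT11.1 ± 1.3 h in knockout cells (limma adjusted p = 0.092) and 1.80 with a peak at ZT8.9 ± 0.7 h in control cells (adjusted p = 0.0067). The genotypes' rhythms did not differ by the test (adjusted p = 0.232).

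Tek, the angiopoietin receptor TIE2 (NM_013690, mm9 chr4:94405980-94541667), was highest at ZT22 in control cells. Its ZT22 values were 4483, 3749 and 4047 in knockout cells and 4887, 4921 and 4887 in control cells, so that control libraries were all higher. At ZT4 it had 4242, 3556 and 4406 in knockout cells and 3749, 3793 and 4017 in control cells, at ZT10 3793, 3512 and 3793 against 3846, 3134 and 3315, and at ZT16 3793, 4047 and 4650 against 4078, 3969 and 3417, and the groups overlapped at each of these times. The fitted fold was 1.11 in knockout cells (limma adjusted p = 0.554) and 1.43 in control cells (peak ZT22.1 ± 0.8 h, adjusted p = 0.017), and the rhythm difference had an adjusted p of 0.238.

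Emcn, the sialomucin endomucin (NM_001163522, mm9 chr3:137004042-137094033), followed a similar course. It had 579, 500 and 518 in knockout cells and 572, 541 and 523 in control cells at ZT4, and 577, 508 and 609 against 540, 488 and 529 at ZT10. At ZT16 it had 625, 569 and 664 in knockout cells and 711, 614 and 564 in control cells, and at ZT22 592, 511 and 491 against 666, 684 and 710. Only at ZT22 did the groups not overlap, with the knockout libraries lower. The fitted fold was 1.18 in knockout cells (limma adjusted p = 0.206) and 1.37 in control cells (peak ZT20.2 ± 0.8 h, adjusted p = 0.023), and the rhythm difference had an adjusted p of 0.094.

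Gata4, a master regulator of sinusoidal endothelial identity (NM_001310610, mm9 chr14:63817751-63864108), was rhythmic in both genotypes. It had 746, 549 and 689 in knockout cells and 642, 716 and 695 in control cells at ZT4, and 786, 938 and 748 against 687, 770 and 779 at ZT10. At ZT16 the values were 1158, 1137 and 1160 in knockout cells and 917, 956 and 781 in control cells, and at ZT22 785, 871 and 1134 against 1039, 889 and 902. The knockout libraries were all higher at ZT16 and overlapped with controls at the other times. The peak was at ZT16.8 ± 0.6 h with a 1.78-fold range in knockout cells (limma adjusted p = 0.00096) and at ZT18.8 ± 1.0 h with a 1.41-fold range in control cells (adjusted p = 0.045), and the rhythms were not shown to differ (adjusted p = 0.210).

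**Figure D1:**
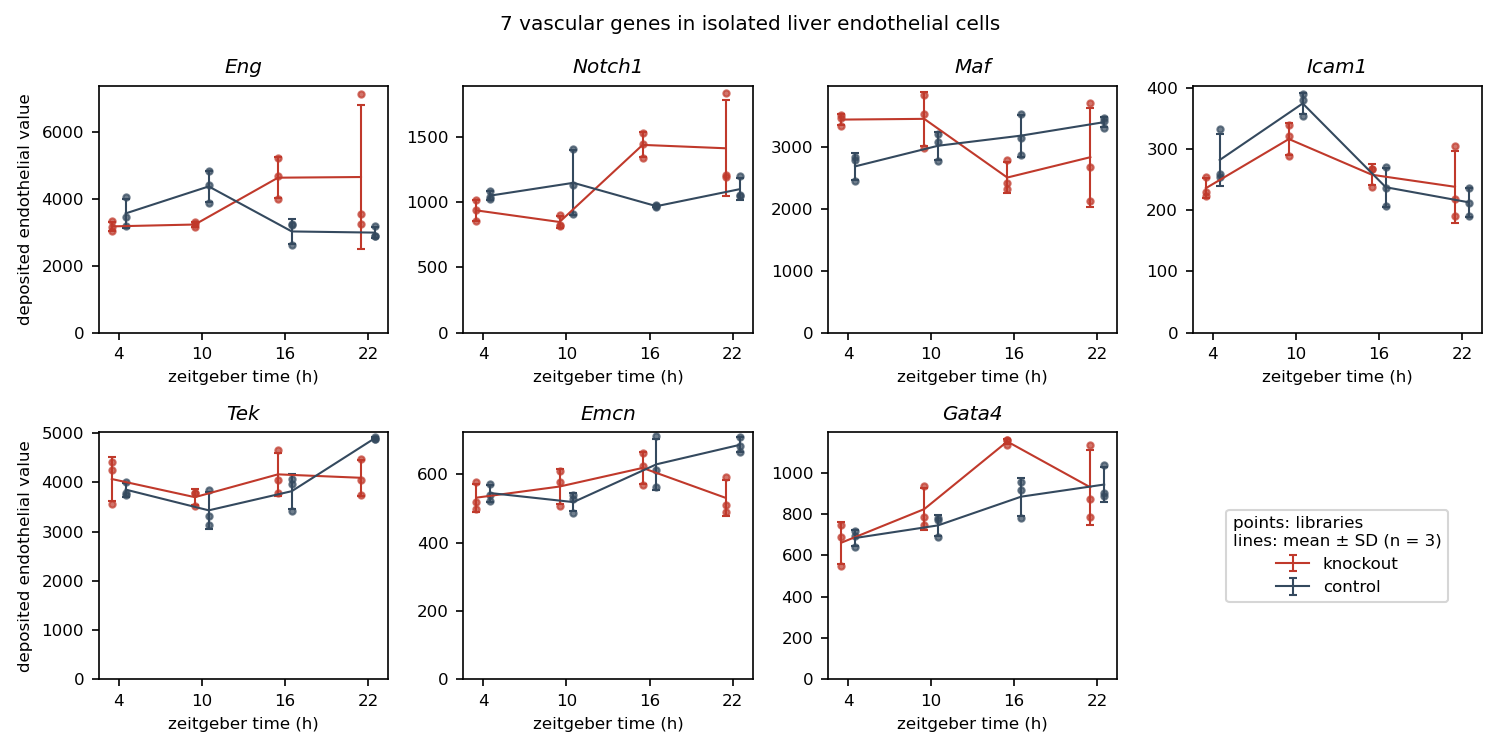
Deposited (quantile-normalised) value of 7 genes in isolated endothelial cells against zeitgeber time in hours, knockout in red and control in dark blue. Points are libraries and lines the mean ± SD of 3 libraries. At ZT16 the 3 knockout libraries of Eng (3987 to 5225) and Notch1 (1340 to 1530) lie above the controls, and those of Maf (2314 to 2785) below them.

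The knockout libraries of Eng and Notch1 lay below the controls at ZT10 and above them at ZT16. Eng encodes endoglin, a co-receptor for BMP9 and TGF-beta (NM_001146350, mm9 chr2:32502115-32538189). It had 3155, 3328 and 3041 in knockout cells and 4047, 3450 and 3192 in control cells at ZT4, and 3234, 3315 and 3144 against 3880, 4406 and 4824 at ZT10. At ZT16 it had 5225, 4682 and 3987 in knockout cells and 3209, 2605 and 3257 in control cells, and at ZT22 3556, 3257 and 7140 against 2886, 3182 and 2899. The knockout libraries were all lower at ZT10 and all higher at ZT16 and ZT22, and 1 of the ZT22 libraries reached 7140. The fitted peak was at ZT18.6 ± 1.0 h (1.61-fold) in knockout cells and ZT8.4 ± 1.2 h (1.51-fold) in control cells, and the rhythms differed at a limma adjusted p of 0.039.

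Notch1, a receptor of the Notch pathway (NM_008714, mm9 chr2:26313422-26359342), had 938, 1017 and 857 in knockout cells and 1040, 1086 and 1026 in control cells at ZT4, and 899, 826 and 820 against 908, 1131 and 1407 at ZT10. At ZT16 it had 1530, 1449 and 1340 in knockout cells and 970, 975 and 965 in control cells, and at ZT22 1207, 1196 and 1840 against 1058, 1045 and 1198. The knockout libraries were all lower at ZT4 and ZT10 and all higher at ZT16. The fitted range was 1.92-fold with a peak at ZT19.2 ± 0.6 h in knockout cells (limma adjusted p = 0.00092) and 1.09-fold in control cells (adjusted p = 0.810), and the rhythms differed at an adjusted p of 0.031.

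Maf, a transcription factor of sinusoidal endothelium and Kupffer cells (NM_001025577, mm9 chr8:118227153-118230794), took the opposite course. It had 3477, 3342 and 3512 in knockout cells and 2443, 2832 and 2785 in control cells at ZT4, and 3542, 2982 and 3846 against 2773, 3083 and 3209 at ZT10. At ZT16 it had 2424, 2785 and 2314 in knockout cells and 3542, 3144 and 2867 in control cells, and at ZT22 3706, 2132 and 2671 against 3315, 3417 and 3477. The knockout libraries were all higher at ZT4 and all lower at ZT16. The peak was at ZT6.3 ± 1.0 h (1.47-fold) in knockout cells and ZT18.4 ± 1.8 h (1.23-fold) in control cells, with a rhythm difference at a limma adjusted p of 0.0495.

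These 3 rhythm differences moved with the GC content of the transcripts. Over 35 members the knockout minus control difference correlated with transcript GC at r = -0.28 at ZT4, -0.46 at ZT10, 0.62 at ZT16 and 0.78 at ZT22, and over 12340 genes at -0.22, -0.56, 0.43 and 0.32, genes that share the same libraries. Eng (59.5% GC) and Notch1 (57.1%) are GC-rich members and Maf (47.4%) a GC-poor one. The slope of log2 expression per 10 points of GC, over genes that are no member, averaged 0.22 in knockout ZT16 and -0.05 in control ZT16 libraries. At ZT10 it averaged -0.18 against 0.16. It varied within groups, at 0.32, 0.30 and 0.03 in knockout ZT16 and 0.04, 0.13 and 0.32 in control ZT10. The highest slopes were in knockout ZT16 numbers 1 and 2, knockout ZT22 number 3 (0.39) and control ZT10 number 3. In these Rn45s, the ribosomal RNA precursor, took 8.64% to 8.69% of the summed value. In the other endothelial libraries it took 1.71% to 5.05%. The part of Rn45s in these differences was not tested. With each library's GC slope as a covariate, limma called 0 members for the rhythm difference (Notch1 and Maf adjusted p = 0.970, Eng 0.979). It called 2 for rhythm in knockout cells and 2 for rhythm in control cells. The shares of all genes called with this covariate are not given here. The slope itself differed between genotypes by time, so this fit cannot separate it from a rhythm difference. Of the 8 members with the highest GC (57.1% to 61.6%), 7 had their fitted peak between ZT16.8 and ZT19.2 in knockout cells and 6 between ZT5.3 and ZT11.8 in control cells, none of these 6 with a called rhythm in controls. Klf2, which has the highest GC, did not follow, with peaks at ZT4.4 and ZT22.8, and Gata4 peaked at ZT16.8 and ZT18.9. The rhythm-difference adjusted p was 0.089 for Nos3, 0.11 for Tie1 and 0.079 for Stab1.

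**Figure D2:**
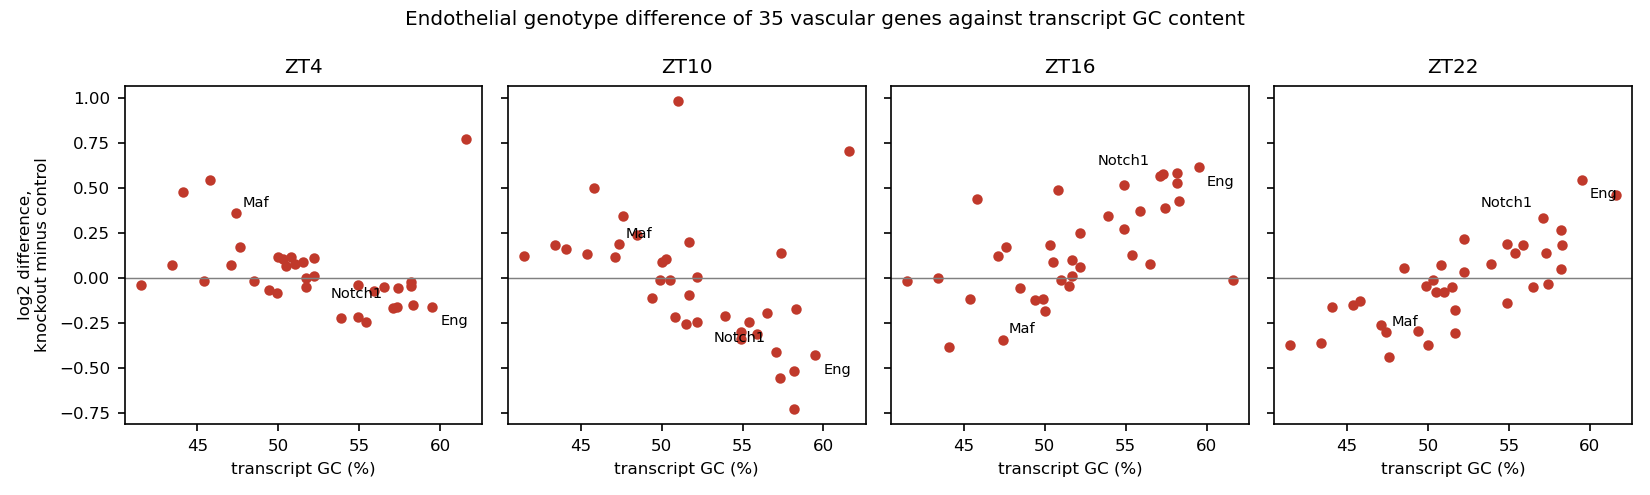
Log2 difference between knockout and control endothelial cells at each time against the GC content of the transcript in percent, 1 point for each of 35 genes. The correlation runs from -0.46 at ZT10 to 0.78 at ZT22, and Eng, Notch1 and Maf are named.

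The rhythm difference was also sensitive to single libraries. Its count was 0 without any 1 of 11 libraries: control ZT10 numbers 2 and 3, ZT16 numbers 1 and 2, ZT22 numbers 1 and 2, and knockout ZT4 number 3, ZT10 numbers 1 and 3 and ZT16 numbers 1 and 2. It was 1 without control ZT4 number 1, control ZT22 number 3 or knockout ZT4 number 1, and 7 without knockout ZT22 number 1 or 2. The knockout rhythm count was 2 without knockout ZT16 number 1, 3 without ZT4 number 3, 4 without ZT10 number 3, and 5 without ZT10 number 1 or ZT16 number 2. The control rhythm count was 1 without control ZT10 number 2 or ZT22 number 3, 2 without control ZT10 number 3 and 7 without knockout ZT22 number 3. All-gene shares without these libraries are not given here. Quantile normalisation leaves the most abundant members few distinct values over the 24 libraries, 3 for Stab2 and for the receptor phosphatase gene Ptprb and 5 for Mrc1, so small changes in them cannot be resolved.

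The remaining members had no rhythm in either genotype by this test. Vcam1, which binds leukocyte integrins, had the widest fitted range among them, 1.82-fold in knockout cells (limma adjusted p = 0.052) and 1.85-fold in control cells (adjusted p = 0.065). The VEGF receptor gene Flt1 had 1.25 and 1.28-fold (adjusted p = 0.055 and 0.056). The other members without a call in either genotype were Aqp1, Cdh5, Clec4g, Dnase1l3, Egfl7, Ehd3, Erg, Fcgr2b, Flt4, Icam2, Kdr, Klf2, Lyve1, Mrc1, Nrp1, Nrp2, Oit3, Pecam1, Ptprb, Robo4 and Stab2. The clock genes of the same libraries swung further, Arntl by 23.1-fold in knockout and 23.2-fold in control cells and Nr1d1 by 19.3-fold and 37.2-fold.

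The ligands and effectors of these receptors gave a similar count. Of 64 vascular signalling partners, 57 were tested in endothelial cells, limma called 0 for the daily mean, and 11 had an unadjusted p under 0.05. For rhythm, 14 (24.6%) were called in knockout cells, where 13.2% of all genes were, among them Notch4, Acvrl1, Smad6 and Id3. In control cells 4 (7.02%) were called, Cav1, Heyl, Itgb2 and Podxl, where 6.13% of all genes were. The rhythm difference was called for 1 partner, Notch4 (limma adjusted p = 0.0494), where 2.04% of all genes were called. The partner calls were not examined with the GC slope as a covariate or with left-out libraries. Heyl, a Notch target, swung 3.97-fold in knockout cells with a peak at ZT21.2 and 2.31-fold in control cells with a peak at ZT22.1. Cav1, the scaffold of caveolae, swung 1.80-fold and 2.10-fold with peaks at ZT18.1 and ZT18.7.

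Whole liver of the knockout showed more of most vascular transcripts under ad libitum feeding. EdgeR's quasi-likelihood test called 21 of 35 members for the daily mean, 18 higher and 3 lower in knockouts, where 27.2% of 12534 genes were called, 13.7% higher and 13.5% lower. The median log2 difference was 0.22 over the members and -0.004 over all genes. The called rises ran from 0.20 to 0.49, so each was below 1.5-fold, and only the fall of Nrp2 exceeded that size. In whole liver, a change in the number of cells of a type and a change in RNA per cell cannot be told apart.

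**Figure D3:**
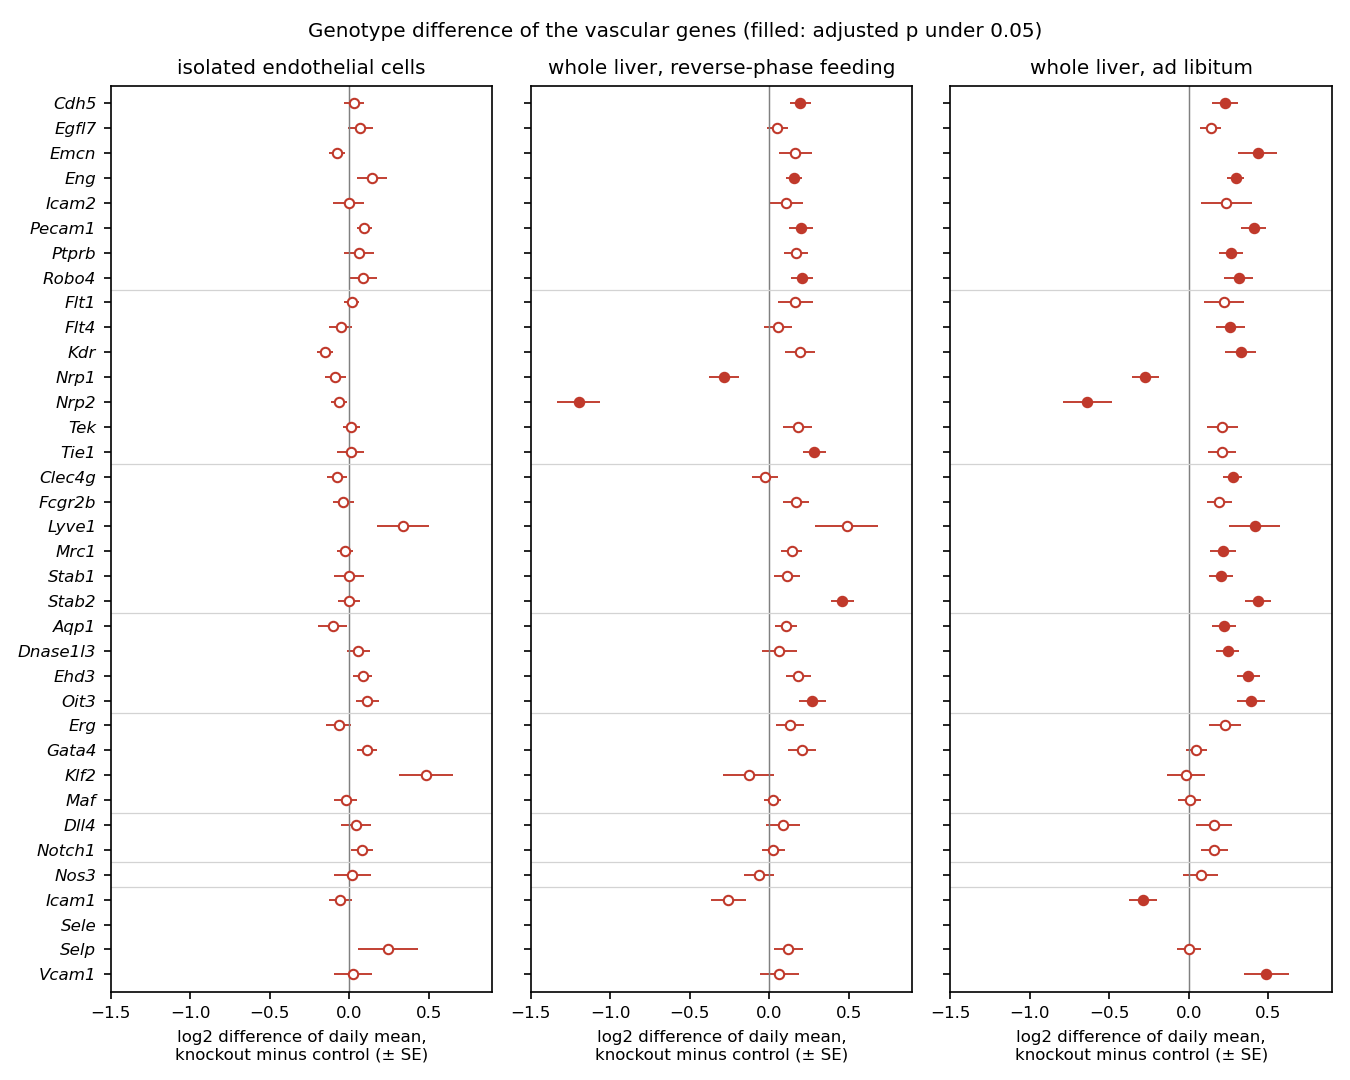
Log2 difference in daily mean, knockout minus control, with its SE, for each gene in isolated endothelial cells, in reverse-phase liver and in ad libitum liver. Filled points passed at an adjusted p under 0.05: none in endothelial cells, 9 in reverse-phase liver and 21 in ad libitum liver. Genes are grouped by role, and Sele was not tested.

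The general endothelial genes Pecam1, Cdh5, Eng, Emcn, Robo4 and Ptprb rose. Eng had 40.4, 60.3 and 70.0 CPM (lowest, median and highest of 24) in knockout livers and 33.7, 44.0 and 76.0 CPM in control livers, a difference of 0.29 ± 0.06 (edgeR adjusted p = 3.6e-05). Pecam1, an adhesion molecule of endothelial junctions (NM_008816, mm9 chr11:106515527-106576595), had 5.50, 12.9 and 18.5 CPM in knockout livers and 5.83, 8.94 and 17.2 CPM in control livers, a difference of 0.41 ± 0.08 (edgeR adjusted p = 6.0e-05). The ranges of both genes overlapped between genotypes, while the medians were higher in knockouts. Emcn differed by 0.43 ± 0.12, Robo4, a guidance receptor that stabilises vessels, by 0.31 ± 0.09, Ptprb by 0.26 ± 0.08 and Cdh5, the VE-cadherin gene, by 0.23 ± 0.08. Egfl7 (0.14 ± 0.07) and Icam2 (0.24 ± 0.16) did not pass.

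Among scavenger and lectin receptors Stab2, Stab1, Clec4g, Mrc1 and Lyve1 rose, and Fcgr2b (0.19 ± 0.08) did not pass. Stab2 (NM_138673, mm9 chr10:86303955-86470687) had 21.3, 39.9 and 54.2 CPM in knockout livers and 20.04, 27.1 and 45.9 CPM in control livers, a difference of 0.44 ± 0.08 (edgeR adjusted p = 3.7e-05). Clec4g had 24.8, 34.1 and 40.2 CPM in knockout livers and 15.2, 25.9 and 40.3 CPM in control livers, a difference of 0.28 ± 0.06 (edgeR adjusted p = 0.00024). For Clec4g the highest libraries of the genotypes were alike and the lowest differed. Lyve1 differed by 0.41 ± 0.16, Mrc1 by 0.22 ± 0.08 and Stab1 by 0.20 ± 0.08.

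All 4 other sinusoidal markers rose. Ehd3 had 36.8, 55.2 and 78.0 CPM in knockout livers and 24.1, 39.2 and 72.6 CPM in control livers, a difference of 0.37 ± 0.07 (edgeR adjusted p = 4.9e-05). Oit3, a secreted protein of sinusoidal endothelium (NM_010959, mm9 chr10:58885708-58904527), had 9.28, 16.7 and 21.9 CPM in knockout livers and 7.10, 13.8 and 20.1 CPM in control livers, a difference of 0.39 ± 0.09 (edgeR adjusted p = 0.00054). Dnase1l3, a secreted nuclease, differed by 0.25 ± 0.07 and Aqp1 by 0.22 ± 0.07.

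The growth factor receptors split. Kdr (0.33 ± 0.10) and Flt4, the VEGF-C receptor (0.26 ± 0.09), rose, and Flt1 (0.22 ± 0.13), Tek (0.21 ± 0.10) and Tie1 (0.21 ± 0.09) did not pass. The neuropilins, co-receptors for VEGF and semaphorins, fell. Nrp2 (NM_001077403, mm9 chr1:62749891-62865266) had 4.47, 7.06 and 11.98 CPM in knockout livers and 4.69, 9.93 and 27.3 CPM in control livers, a difference of -0.64 ± 0.16 (edgeR adjusted p = 0.0015). Nrp1 (NM_008737, mm9 chr8:130882973-131029375) had 30.6, 57.8 and 99.98 CPM in knockout livers and 37.9, 67.3 and 95.0 CPM in control livers, a difference of -0.28 ± 0.09 (edgeR adjusted p = 0.013). Nrp1, Nrp2 and Icam1 are given in full because they were the 3 members that fell.

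Adhesion molecules moved apart. Icam1 had 6.30, 10.4 and 16.95 CPM in knockout livers and 8.27, 12.8 and 19.2 CPM in control livers, a difference of -0.29 ± 0.09 (edgeR adjusted p = 0.012). Vcam1 rose by 0.49 ± 0.14 (adjusted p = 0.0083) and Selp differed by 0.00 ± 0.07. None of the transcription factors, Notch genes or Nos3 passed: Gata4 differed by 0.05 ± 0.07, Maf by 0.00 ± 0.07, Klf2 by -0.02 ± 0.12, Erg, an ETS factor of endothelium, by 0.22 ± 0.10, Dll4 by 0.16 ± 0.11, Notch1 by 0.16 ± 0.08 and Nos3 by 0.07 ± 0.11.

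Markers of another sinusoidal cell moved in the same direction. All 11 stellate cell markers were called higher in knockout livers ad libitum, with a median of 0.44, and their summed CPM was 293 to 607 in knockout libraries and 208 to 497 in control libraries. Reln was higher by 0.54 ± 0.08. Of 12 Kupffer and macrophage markers 0 were called by edgeR, with 0 at an unadjusted p under 0.05, and they summed to 216 to 523 CPM in knockout libraries and 242 to 539 CPM in control libraries. Of 12 hepatocyte markers 5 were higher and 1 lower, the sum was 112000 to 168400 CPM in knockout libraries and 129500 to 177900 CPM in control libraries, and Alb was lower by 0.36 on the log2 scale. The part of these cells in the vascular genes' rise was not tested. The count of called members was 7 without the libraries numbered 1 of every group, and the all-gene share of that fit is not given here.

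Under reverse phase feeding the difference covered fewer genes. EdgeR called 9 of 35 members, 7 higher and 2 lower, where 26.9% of all genes were called, 12.7% higher and 14.2% lower, and the median was 0.13 over the members and -0.006 over all genes. Of the 9 reverse-phase calls and the 21 ad libitum calls, 8 were shared: Stab2, Oit3, Eng, Cdh5, Robo4 and Pecam1, all higher, and Nrp1 and Nrp2, both lower. Tie1, a receptor of the angiopoietin system, rose by 0.28 ± 0.07 and was called only under reverse-phase feeding.

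Stab2 had 23.1, 37.3 and 55.7 CPM in knockout livers and 17.1, 25.9 and 38.2 CPM in control livers, a difference of 0.46 ± 0.07 (edgeR adjusted p = 1.7e-06). Nrp2 had 3.94, 6.35 and 12.2 CPM in knockout livers and 5.90, 15.8 and 28.1 CPM in control livers, a difference of -1.20 ± 0.14 (edgeR adjusted p = 1.1e-09). At ZT4 the Nrp2 libraries read 12.2, 9.90 and 9.38 CPM in the knockout and 25.6, 27.3 and 28.1 CPM in the control, and at ZT10 5.48, 9.13 and 6.02 CPM against 23.2, 24.9 and 23.3 CPM. The Nrp2 groups did not overlap at these times, nor at ZT1, ZT7, ZT16 and ZT19, and overlapped at ZT13 and ZT22. In endothelial cells Nrp2 differed by -0.07 ± 0.05, and it was among the members with no call there.

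Nrp1 fell by about as much as ad libitum (-0.28 ± 0.09, edgeR adjusted p = 0.019). The other named members had differences nearer 0 than ad libitum: Oit3 0.27 ± 0.09, Pecam1 0.20 ± 0.07, Eng 0.16 ± 0.05, Ehd3 0.18 ± 0.08 (not called), Icam1 -0.26 ± 0.11 (not called) and Clec4g -0.03 ± 0.08 (not called). The remaining members without a call ranged from -0.13 ± 0.16 for Klf2 to 0.49 ± 0.20 for Lyve1. Of the 11 stellate markers 9 were called higher, with a median of 0.33, their sum was 372 to 545 CPM in knockout libraries and 263 to 493 CPM in control libraries, and 0 of 12 Kupffer markers were called. The count of members was 4 without the libraries numbered 1 and 5 without those numbered 3, with no all-gene shares given here. The genotype effect was not shown to differ between the schedules for any member: in a joint edgeR fit 0 of 35 were called, 3 had an unadjusted p under 0.05 (Clec4g, Nrp2 and Vcam1), DESeq2 called 0, and 0.207% of all genes were called.

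Counting both directions, the partners of these receptors were called about as often as all genes ad libitum, and most of their calls were higher. In whole liver 16 of 54 tested partners (29.6%) were called, 13 higher and 3 lower. Of all genes 27.2% were called, 13.7% higher and 13.5% lower. Among the higher were the endothelial diaphragm gene Plvap (0.41 ± 0.07), Vwf (0.38 ± 0.10), the endothelin receptor gene Ednrb (0.44 ± 0.10) and Gdf2, which encodes the endoglin ligand BMP9 (0.34 ± 0.07). Lower were Vegfb (-0.97 ± 0.10), Vegfa (-0.16 ± 0.05) and Smad9 (-0.45 ± 0.17). Under reverse-phase feeding 11 of 60 (18.3%) were called, 9 higher and 2 lower, where 26.9% of all genes were, 12.7% higher and 14.2% lower. Among these partners were Vegfb (-1.29 ± 0.07), Plvap (0.30 ± 0.07), the Notch target Hes1 (0.67 ± 0.14) and the receptor gene Notch3 (0.59 ± 0.14).

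**Figure D4:**
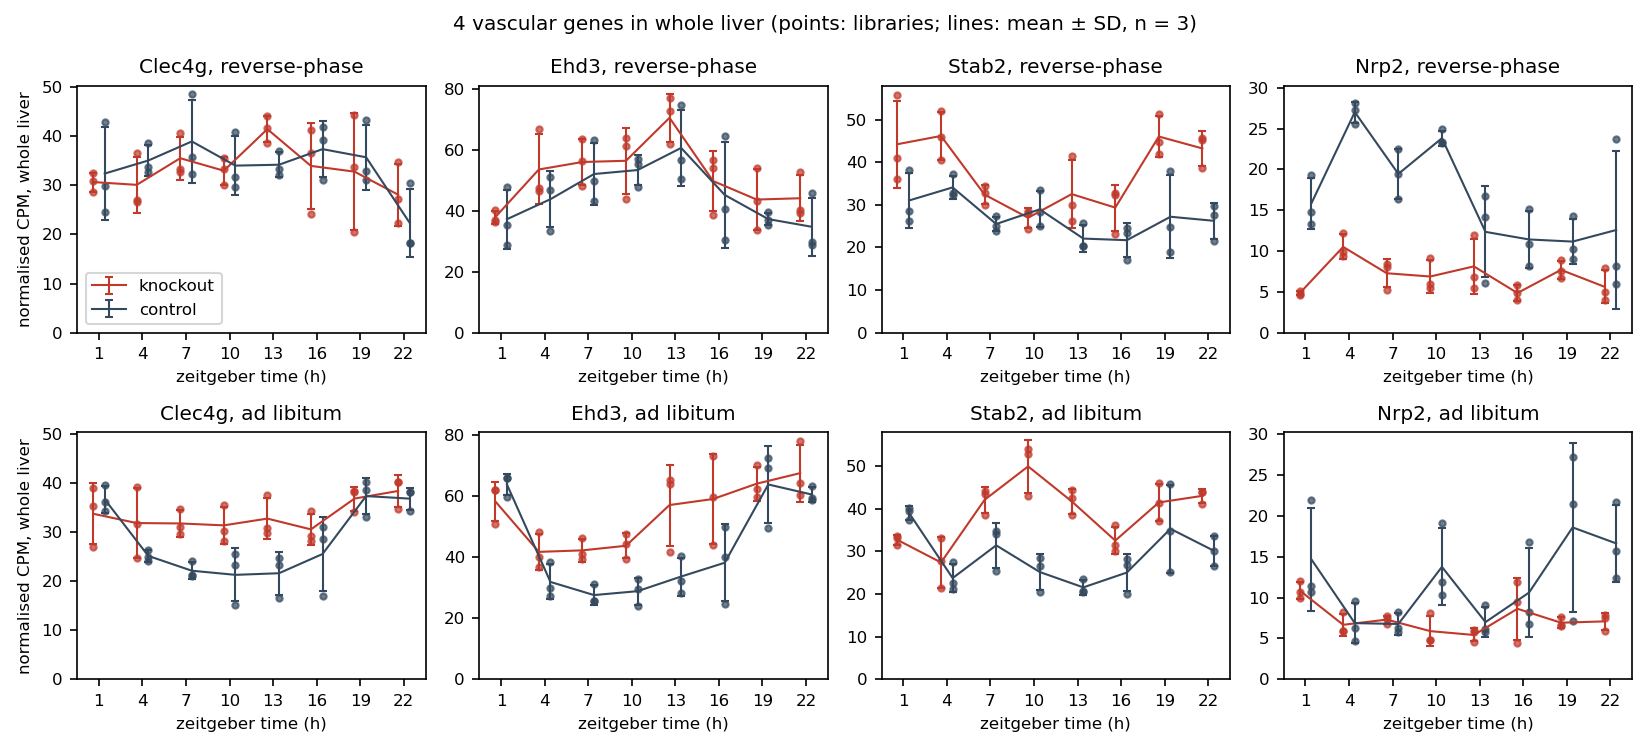
Normalised CPM of Clec4g, Ehd3, Stab2 and Nrp2 in whole liver against zeitgeber time in hours, reverse-phase feeding above and ad libitum below, with knockout in red and control in dark blue. Points are libraries and lines the mean ± SD of 3. In the ad libitum panels of Clec4g and Ehd3 the knockout libraries stay above the controls at ZT7, ZT10 and ZT13.

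In ad libitum liver the fitted daily range of 28 of 35 vascular transcripts was smaller in the knockout than in the control, as it was for 55.9% of all genes, and the difference in rhythm itself was called for 2 members. EdgeR called a rhythm for 16 of 35 members in knockout liver, where 44.1% of all genes were called, and for 24 of 35 in control liver, where 48.1% were. The median peak-to-trough fold over the members was 1.31 in knockout and 1.80 in control liver, against 1.29 and 1.33 over all genes. The calls in knockout and control liver shared 13 members.

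Most peaks fell late in the night. Of the 16 called in knockouts 10 peaked between ZT18.6 and ZT23.7, and of the 24 called in controls 22 peaked between ZT19.6 and ZT23.6. The exceptions in controls were Selp, at ZT5.9 ± 0.7 h (2.04-fold), and Vcam1, at ZT14.4 ± 1.2 h (1.89-fold). Nrp1, Notch1 and Nos3 were called in knockouts only, with peaks at ZT6.2, ZT3.1 and ZT14.9. A call in 1 genotype alone does not show a difference, and the difference itself was called for 2 members, Clec4g and Ehd3, where 3.31% of all genes were called.

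Clec4g (NM_029465, mm9 chr8:3716071-3720651) had means of 33.7, 31.8, 31.7, 31.3, 32.7, 30.5, 36.8 and 38.4 CPM from ZT1 to ZT22 in knockout livers. In control livers the means were 36.6, 25.1, 22.1, 21.2, 21.6, 25.5, 37.3 and 36.8 CPM. At ZT7 the libraries read 29.5, 31.0 and 34.7 CPM in the knockout and 20.9, 24.03 and 21.3 CPM in the control. The knockout libraries lay above all controls at ZT7, ZT10 and ZT13 and overlapped at the other times, so the daytime trough of controls was shallower in knockouts. The range was 1.18-fold in knockout livers (edgeR adjusted p = 0.195) and 1.92-fold with a peak at ZT22.0 ± 0.5 h in control livers (adjusted p = 4.6e-08), and the rhythms differed at an adjusted p of 0.019.

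Ehd3 (NM_020578, mm9 chr17:74154181-74181433) had means of 58.3, 41.7, 42.2, 43.7, 57.1, 59.0, 64.0 and 67.5 CPM from ZT1 to ZT22 in knockout livers. In control livers the means were 63.8, 31.8, 27.5, 28.8, 33.6, 38.1, 63.8 and 60.5 CPM. At ZT10 the libraries read 44.1, 47.6 and 39.3 CPM in the knockout and 24.1, 32.9 and 29.5 CPM in the control. As for Clec4g, the groups did not overlap at ZT7, ZT10 and ZT13, with the knockout higher, and did at the other times. The range was 1.62-fold with a peak at ZT19.4 ± 0.8 h in knockout livers (edgeR adjusted p = 0.00035) and 2.51-fold with a peak at ZT21.4 ± 0.4 h in control livers (adjusted p = 1.1e-09), and the rhythms differed at an adjusted p of 0.031. Neither rhythm difference was called without the libraries numbered 1 or without those numbered 3, and in endothelial cells the rhythm-difference adjusted p was 0.91 for Clec4g and 0.16 for Ehd3.

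Gata4 and Dnase1l3 had the next smallest p values for rhythm in control liver. Gata4 had 15.8, 22.6 and 33.6 CPM (lowest, median and highest) in knockout livers and 12.7, 23.4 and 32.7 CPM in control livers. It peaked at ZT17.4 ± 1.2 h with a 1.33-fold range in knockout livers (edgeR adjusted p = 0.029) and at ZT19.6 ± 0.5 h with a 1.97-fold range in control livers (adjusted p = 3.0e-07). Dnase1l3 had 25.4, 36.3 and 50.8 CPM in knockout livers and 17.8, 29.4 and 49.7 CPM in control livers. It peaked at ZT22.7 ± 1.3 h with a 1.32-fold range in knockout livers (edgeR adjusted p = 0.048) and at ZT21.9 ± 0.6 h with a 1.95-fold range in control livers (adjusted p = 2.0e-06). Both genes' lowest libraries were lower in controls, and neither rhythm difference was called (adjusted p = 0.070 and 0.24).

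Other cell types of the sinusoid peaked at the same hours. In control liver ad libitum 9 of 12 Kupffer and macrophage markers were rhythmic, 8 of them with peaks between ZT22.4 and ZT23.9, and 7 of 11 stellate markers, 5 of them between ZT21.3 and ZT22.7. Of 12 hepatocyte markers 7 were rhythmic, with a median fold of 1.34, and 2 of these peaked between ZT18.6 and ZT22.4. The part of a shift between cell types in the vascular genes' rhythm was not tested. The members' rhythm count in knockout liver was 4 without the libraries numbered 1 and 8 without those numbered 3, with no all-gene shares given here.

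Most called peaks in control livers lay at other hours under reverse phase feeding than ad libitum. Rhythms on this schedule were called for 13 of 35 members in knockout livers, where 36.8% of all genes were called, and for 17 of 35 in control livers, where 41.2% were. In controls 13 of the 17 peaked between ZT3.3 and ZT11.6. Tested directly in the joint edgeR fit, the control rhythm differed between the schedules for 22 of 35 members, where 53.6% of all genes did. Among the 17 members rhythmic in reverse-phase controls and the 24 in ad libitum controls, 15 were in both sets, and their peaks lay a median of 9.45 h apart, from 1.45 h for Vcam1 to 11.8 h for Emcn. The clock gene Arntl peaked at ZT11.9 under reverse-phase feeding and ZT21.9 ad libitum in the same control livers. The schedules also differed in depth, so feeding cannot be told apart from other differences between these sets of libraries.

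Individual genes followed that order. Ehd3 peaked at ZT10.5 ± 0.8 h under reverse-phase feeding (1.67-fold) and at ZT21.4 ± 0.4 h ad libitum, and Kdr at ZT6.2 ± 1.0 h and ZT22.1 ± 0.8 h. Nrp2 peaked at ZT6.1 ± 0.8 h with a 2.34-fold range and at ZT20.4 ± 1.1 h with a 2.04-fold range. Selp peaked at ZT20.3 ± 0.7 h under reverse-phase feeding and at ZT5.9 ± 0.7 h ad libitum, opposite to most members on both schedules. Stab2 at ZT3.0 ± 1.1 h and Lyve1 at ZT0.1 ± 1.0 h peaked close to lights on under reverse-phase feeding, against ZT23.6 ± 1.2 h and ZT19.7 ± 1.1 h ad libitum, and their rhythms were not shown to differ between schedules (edgeR adjusted p = 0.161 and 0.053).

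**Figure D5:**
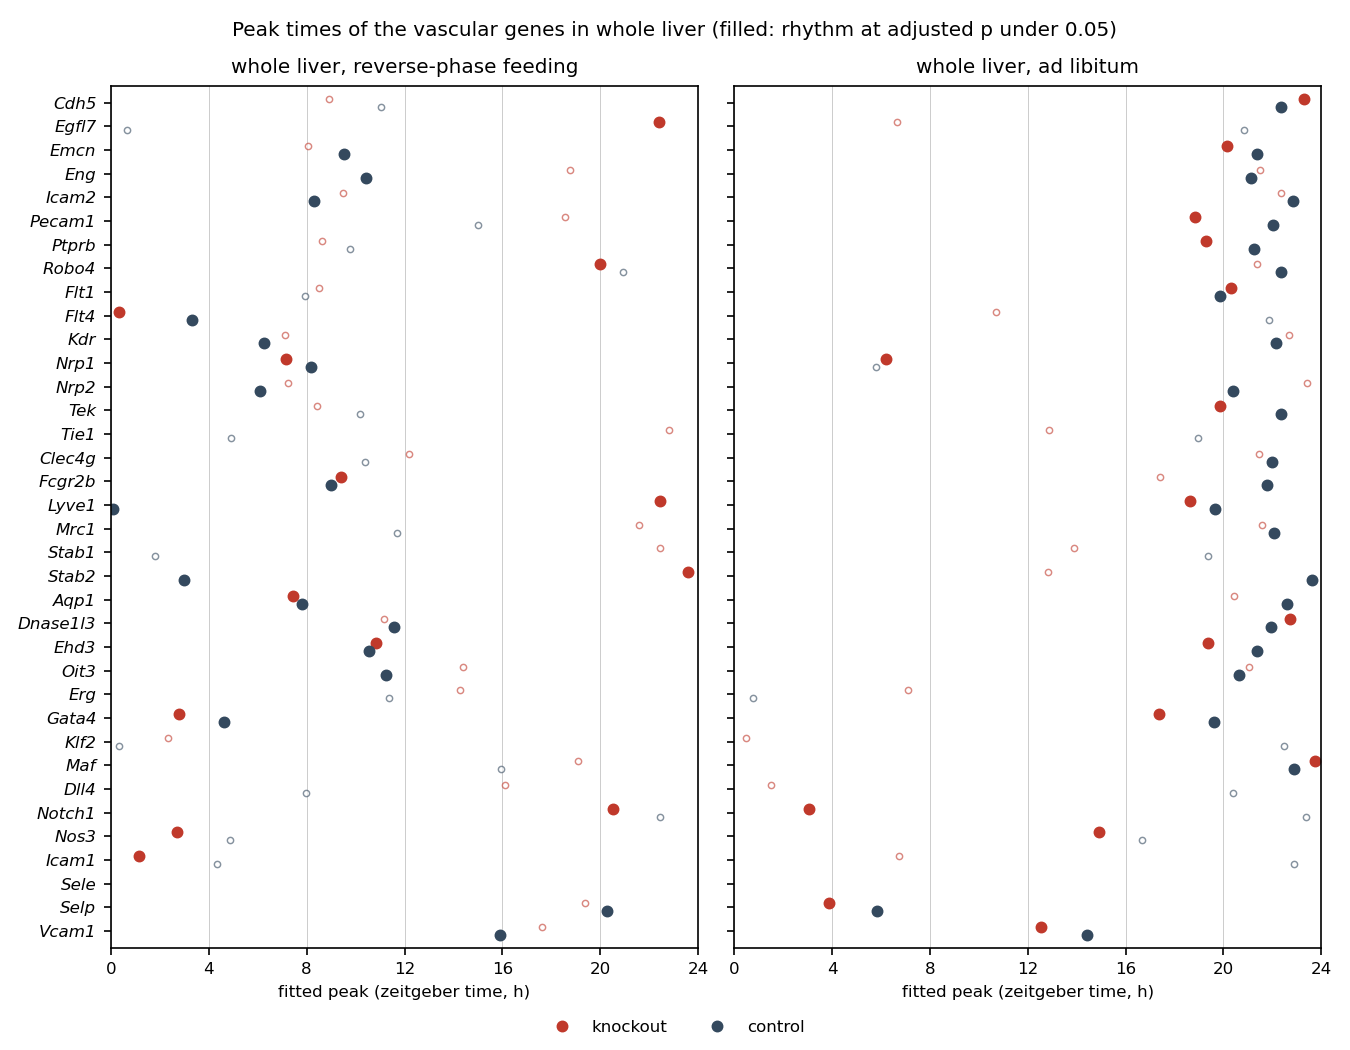
Fitted peak time in hours of each gene in whole liver, reverse-phase feeding at the left and ad libitum at the right, knockout in red above control in dark blue. Filled points had a rhythm at an adjusted p under 0.05. Under reverse-phase feeding 13 of 17 filled control points lie between ZT3.3 and ZT11.6, and ad libitum 22 of 24 lie between ZT19.6 and ZT23.6.

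Of the 13 members rhythmic in knockout livers on reverse-phase feeding, 4 peaked between ZT7.2 and ZT10.8 (Aqp1, Ehd3, Fcgr2b and Nrp1) and 5 between ZT20 and ZT23.6 (Egfl7, Lyve1, Notch1, Robo4 and Stab2), and the others were Flt4, Gata4, Icam1 and Nos3, at ZT0.3 to ZT2.8. EdgeR called 0 of 35 for a rhythm difference between genotypes on this schedule, 1 had an unadjusted p under 0.05, DESeq2 called 0, and 1.48% of all genes were called. For Clec4g the range was 1.30-fold in knockout livers and 1.27-fold in control livers, neither of which passed. The knockout count was 8 without the libraries numbered 1, and the control count 8, 10 and 11 without those numbered 3, 1 and 2. All-gene shares of these fits are not given here.

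In Kupffer cells no member passed the test for a genotype difference. Limma called 0 of 34 tested members for the daily mean, where 0.0244% of 12270 genes were called (0.0163% higher, 0.00815% lower), and 1 had an unadjusted p under 0.05. Rhythm in control cells was called for 1 member, Stab2, where 1.96% of all genes were, with a 1.99-fold range and a peak at ZT5.1 ± 0.6 h in knockout cells and 2.10-fold with a peak at ZT5.0 ± 0.6 h in control cells. Stab2 was also the 1 member called in knockout cells, where 1.81% of all genes were. Its values at ZT4 were 1729, 2812 and 2099 in knockout cells and 1840, 2683 and 2783 in control cells, against at most 2108 at any other time. The ZT4 libraries numbered 2 and 3 of both genotypes stood apart, with the slope of expression on transcript length 3.85 to 5.22 median absolute deviations above the median library. In these, 27 of 34 members in knockout cells and 29 of 34 in control cells were higher than in the ZT4 library numbered 1, against 35.9% and 29.7% of all genes. Kdr, for example, had 263, 724 and 452 in knockout cells and 171, 708 and 1039 in control cells, and the stellate marker sums were 2071, 6124 and 4498 in knockout and 2959, 3989 and 4895 in control libraries. The median peak-to-trough fold was 1.91 in knockout and 1.75 in control Kupffer cells over the members, against 1.22 and 1.21 over all genes. Both rhythm calls of Stab2 were lost without the libraries numbered 3 and without numbers 2 and 3 at ZT4. In endothelial cells Stab2 had no called rhythm.

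Of the 36 members, 5 took a larger share of the Kupffer table than of the endothelial table, with the tables scaled separately. With each table's total scaled as for CPM, the share of Cdh5 stood at 1347 in knockout and 1417 in control Kupffer cells and at 1000 and 976 in endothelial cells, and Maf at 1050 and 1039 against 813 and 816. Vcam1 stood at 835 and 660 against 191 and 186, Klf2 at 217 and 218 against 86.2 and 61.0, and Icam1 at 116 and 131 against 69.6 and 73.5. The scavenger receptor Mrc1 was also high in Kupffer cells, at 2790 and 2819 against 4613 and 4693 in endothelial cells. The other 30 members, such as Clec4g at 33.4 and 42.5 against 2214 and 2335, had lower shares in Kupffer cells.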

How the data were processed

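RNA of whole liver, endothelial cells and Kupffer cells was sequenced from TruSeq libraries, per the labels. STAR, HOMER and the mm9 build were used, per the submitters' processing notes, which give no versions. The deposited liver tables hold expected counts per transcript (multiples of 0.5), which were rounded before testing. The deposited endothelial and Kupffer tables hold a normalised signal: the 24 columns of each share 1 set of sorted values, the mark of quantile normalisation, which the labels do not state, so their depth is unknown. All columns were mapped to samples. Columns named CRE were read as knockout and GFP as control.

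For each symbol the row with the largest mean was used. A model with genotype and a 24 h cosine within each genotype was fitted to all genes, with edgeR 4.0.16 (quasi-likelihood, TMM, filterByExpr) for liver and limma 3.58.1 (trend, robust) on log2(value + 1) for the cells, keeping genes at 10 or more in at least 3 libraries, in R 4.3.3. A log2 fold change on that scale understates low genes. P-values were adjusted by Benjamini-Hochberg over all genes, at 0.05. A library's name gives its group and number. Peak-to-trough fold and peak time come from the fitted cosine, and their SE are approximate. Liver values are CPM after TMM. Both fits were run on simulated counts that were not quantile normalised and carried no GC slope. Those runs do not check how the limma fit behaves on the deposited cell values. Alternatives included DESeq2 1.42.0, other filters, covariates and left-out libraries.

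The members and gene lists were chosen with earlier results of these data known. Every library is given in endothelial cells for members called there in a genotype test or for a rhythm difference and for the 4 with the smallest p for control rhythm. Ranges are given in liver for the 6 members with the smallest genotype p ad libitum and the 4 for rhythm. The further members with ranges (Klf2, Lyve1, Kdr, Nrp1, Nrp2, Icam1) were chosen after their values were seen.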

Additional observations from a re-analysis of the deposited data

Results flagged for a closer look

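The daily course of 3 of 35 members differed between knockout and control endothelial cells by a test of the difference itself, which called 2.04% of all genes. The limma adjusted p was 0.0393 for Eng, 0.0495 for Maf and 0.0309 for Notch1. The fitted peaks of Eng were at ZT18.6 in knockout and ZT8.4 in control cells, and those of Maf at ZT6.3 and ZT18.4. The fitted range of Notch1 was 1.92-fold in knockout and 1.09-fold in control cells. Transcript GC content moved with these differences, and with the GC slope of each library as a covariate none of the 3 was called. That slope also varied with genotype and time, so the fit cannot separate it from a rhythm difference.

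In whole liver fed ad libitum the course differed between genotypes for Clec4g (edgeR adjusted p = 0.0193) and Ehd3 (adjusted p = 0.0309), where 3.31% of all genes were called. Both had a smaller fitted range in the knockout, 1.18-fold against 1.92-fold in the control for Clec4g and 1.62-fold against 2.51-fold for Ehd3.

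Between the feeding schedules, the control rhythm differed for 22 of 35 members in the joint edgeR fit, where it differed for 53.6% of all genes. The smallest adjusted p were 7.1e-13 for Ehd3, 1.8e-08 for Selp and 6.4e-08 for Gata4.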

How the results depend on the processing

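Of 432 alternative counts of called members, 368 stayed within 1.5 times the count in the report and 64 did not. For named members, 1120 of 1302 alternative values kept direction and side of the threshold, 165 lost the call, 13 gained it and 4 reversed. The cause of these changes was not tested, and the shares of all genes called in the alternative fits are not given here. In endothelial cells the count of rhythm differences was 1 with a replicate block, 1 with no filter, 1 with time as a factor, 0 with plain eBayes, 7 with the hepatocyte sum and 0 with the GC slope as a covariate. The knockout rhythm count there was 2 with the GC slope and 14 without the 2 knockout ZT22 libraries that stood apart, and the control rhythm count was 1 at a fold of at least 1.5, 7 with the hepatocyte sum, 2 with the GC slope and 8 without those libraries. Genotype calls were 2 at ZT10 with the hepatocyte sum, and 4 at ZT10 and 5 at ZT16 without those libraries. In Kupffer cells the rhythm count was 0 in either genotype without numbers 2 and 3 at ZT4. In liver the genotype count was 1 at a fold of at least 1.5 on either schedule. The ad libitum rhythm difference count was 1 with no filter, 1 with time as a factor and 4 without control ZT16 and ZT22 number 2. The left-out ZT16 library stood apart by its length slope (-3.19 median absolute deviations). The left-out ZT22 library had 12.3% of its summed counts on Rn45s, the ribosomal RNA precursor, against 0.43% to 1.34% in the other ad libitum libraries. The reverse-phase rhythm difference count was 1 without knockout ZT10 number 3.

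Leaving out 1 library at a time gave endothelial counts of 0 to 7 for the rhythm difference, 2 to 13 for rhythm in knockout, 1 to 7 for rhythm in control, 0 to 4 at ZT10, 0 to 4 at ZT16 and 0 to 3 at ZT22. Leaving out 1 replicate number at a time gave 0 to 1 for rhythm in knockout and in control Kupffer cells. Ad libitum it gave 7 to 15 for genotype, 4 to 15 for knockout rhythm, 16 to 21 for control rhythm and 0 to 2 for the rhythm difference. Under reverse-phase feeding it gave 4 to 8, 8 to 9 and 8 to 11 for the first 3 of these. Reversed values were the control range of Notch1 in endothelial cells with the GC slope (1.23-fold), the reverse-phase genotype difference of Clec4g without number 1 (0.0072) or 3 (0.0045), and its rhythm difference without number 2 (1.13-fold), none of them called in either fit. Over the 3 left-out numbers these Clec4g values ran from -0.0906 to 0.0072 and from 1.11-fold to 1.47-fold.

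Replicate numbers were not shown to pair the samples. The median correlation of same-numbered deviations was 0.0175 in endothelial cells, 0.0386 in Kupffer cells, 0.00887 in ad libitum liver and 0.0681 in reverse-phase liver. The highest were 0.192, 0.419, 0.249 and 0.492, and 1 of 12, 4 of 12, 5 of 24 and 8 of 24 were over 0.1. These correlations compare the genotypes within a time, so they do not address a batch that runs across times. With the replicate block the counts for genotype, knockout rhythm, control rhythm and rhythm difference were 20, 16, 24 and 3 ad libitum and 9, 13, 16 and 0 under reverse-phase feeding. The ad libitum libraries were shallower than the reverse-phase ones, and quantile normalisation limits the resolution of the most abundant endothelial genes.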
